A study of Mus musculus with 12 samples.

Results

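The 34 genes described here are macrophage and myeloid genes that were picked by name from the 54532 genes of the deposited count table, at a time when earlier results of these data were known. They comprise a growth factor receptor and a transcription factor of the lineage, macrophage surface markers, Fc receptors with their signalling partners, the chains of complement C1q, Toll-like receptors, leukocyte integrins, MS4A membrane proteins, lysosomal and leukocyte proteins, and a pair of secreted factors shared with platelets. They were measured by bulk RNA-seq in cells sorted from the mouse fetal ovary at embryonic day E15.5. All embryos came from the strain Tg(Pou5f1-EGFP)2Mnn, whose Pou5f1 (OCT4) reporter makes germ cells fluorescent, and dams received 4 daily intraperitoneal injections from E12.5 of 10 µg dexamethasone (dex, an agonist of the glucocorticoid receptor) per g of body weight, or of saline. GFP+ germ cells and GFP– somatic cells of each treatment gave 4 groups of 3 libraries, and each library was a biological replicate pooled over at least 2 dosed litters. After doublets and dead cells had been gated out, the somatic fraction was sorted by the absence of GFP, with no marker of any somatic cell type, so that blood-borne cells could enter it.

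Macrophages populate the fetal gonad from early in its development, arriving from the yolk sac and later from fetal liver monocytes. They depend on signals through the CSF1 receptor and on the transcription factor PU.1, and they clear dying cells and debris with receptors for antibody, complement and lipids. Glucocorticoids are known to act on macrophages directly, and Cd163 is a textbook example of a gene that they induce in these cells. The question put to the libraries was whether all 34 genes fell alike in somatic cells after dex.

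Total counts ranged from 14658503 to 18245507 per library, and 3 counts, taken as the floor of detection, corresponded to 0.169 to 0.201 CPM (counts scaled to library size with TMM factors). Pou5f1, the gene behind the sort, stood at 19 ± 6.05 CPM in germ cells given saline, as against 0.0619 ± 0.0607 CPM in their somatic counterparts (SD, n = 3). Fkbp5, a target gene of the glucocorticoid receptor, rose in somatic cells from 129 ± 12.9 to 316 ± 10.5 CPM (edgeR adjusted p = 2.61e-07). Among the somatic libraries, dex replicate 1 stood apart for the genes described here, and counts are therefore also given without it. It held 2568 counts of the 34 genes, against 5438 and 4657 in dex replicates 2 and 3 and 6321 to 7971 in saline. The labels name no sequencing batch.

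In saline somatic cells the 34 genes covered a wide range of levels, compared here in FPKM, which corrects for gene length. The highest were Lyz2 (19.8 ± 1.31 FPKM), which encodes lysozyme, and the C1q chain genes C1qa (18.6 ± 3.39 FPKM) and C1qb (15.7 ± 3.9 FPKM), which did not differ from Lyz2 beyond their spread (SD, n = 3). Cd68, Csf1r, Mrc1 and Tyrobp followed with means of 10.54 to 13.96 FPKM. The lowest were the integrin genes Itgam (0.189 ± 0.0483 FPKM) and Itgax (0.111 ± 0.0839 FPKM), followed upward by Cd163 (0.297 ± 0.0371 FPKM). Defining macrophage markers were thus present in every saline somatic library, although the 34 genes together held only 0.0395% to 0.0488% of its counts.

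Dex somatic cells held less RNA of most of these genes than saline somatic cells. Of 33 genes tested, 16 fell and 0 rose in edgeR's quasi-likelihood test (Benjamini-Hochberg adjusted p up to 0.05), which is 48.5% of those tested. Over all 16556 genes tested the same test called 3.36% lower and 4.81% higher. The log2 fold change was below zero for 32 of the 33, with a median of -0.88 against 0.000142 over all genes. An unadjusted p under 0.05 was found for 28 of the 33, and for 3453 of all 16556 genes. Itgax was too low in somatic cells to be tested. Folr2, Fcgr1, Tlr1, Itgam and Ms4a7 reached the level of the low-count filter (10 counts in a library of median size) in every saline library but not in every dex library, which favours a fall among the genes that passed. Of the other 28 genes tested, which reached it in all 6 libraries, 12 fell and 0 rose. The estimates were not equal, however, and ranged from -3.35 for Tlr1 to 0.99 for Cd163. Cd163 was the only gene with a value above zero and was not called. A range of estimates does not by itself show that the genes fell by different amounts. In a bulk library, fewer cells of a type and less RNA per cell cannot be told apart.

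The count depended on single libraries. Without dex replicate 1, 14 genes were called lower, and 9 when either saline replicate 2 or saline replicate 3 was omitted. With no filter on low counts, 26 were called. The genes called under every single-library omission were 7, namely Csf1r, Adgre1, Cd68, Trem2, Tlr1, Lyz2 and Lcp1. In a fit over all 12 libraries Cd68, Tyrobp, Tlr2, Tlr4, Cybb and Folr2 lost their calls, with edgeR adjusted p-values of 0.0661 to 0.137. By levels alone, all 3 dex libraries lay below all 3 saline libraries for 25 of the 34 genes, and the groups overlapped for 9. Such a separation held for 11.9% of all genes tested. The 25 include Itgax, which was not tested, and Folr2, Fcgr1, Tlr1 and Ms4a7, which did not reach the filter level in every dex library. With dex replicate 1 left out it held for 26 of the 34 genes and for 17.4% of all genes.

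**Figure D1:**
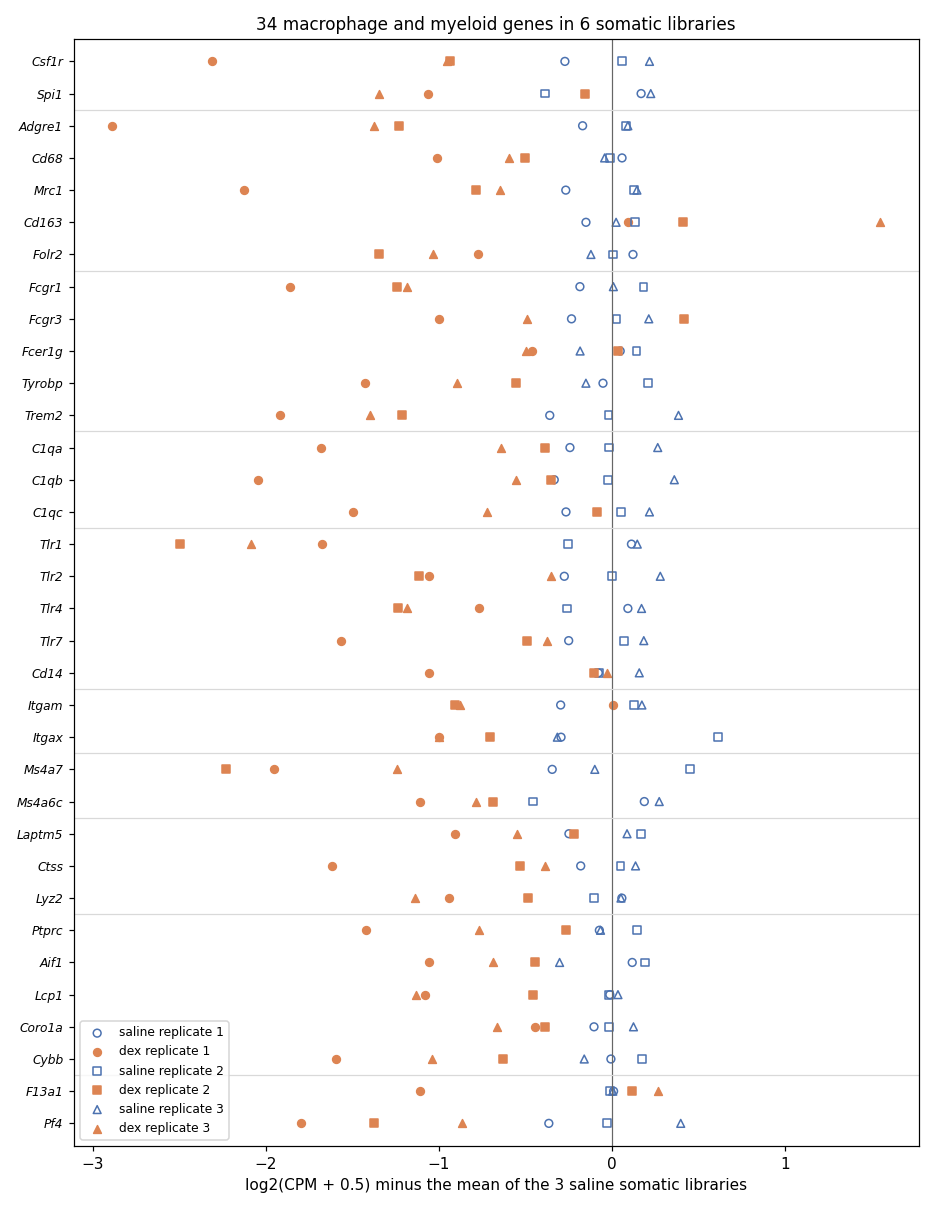
Level of each of the 34 genes in the 6 somatic libraries, as log2(CPM + 0.5) minus the mean of the 3 saline libraries (horizontal axis), with filled orange symbols for dex, open blue symbols for saline and a symbol shape per replicate number. The dex symbols lie wholly to the left of the saline symbols for 25 genes, dex replicate 1 (filled circle) is often the leftmost, and for Cd163 no dex library lies below the saline mean.

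The summed level of the 34 genes was 398, 457 and 484 CPM in the saline libraries and 155, 306 and 277 CPM in the dex libraries, in replicate order. The dex mean was 55.2% of the saline mean, and 65.4% without dex replicate 1. For 6 core genes taken as a reference (Csf1r, Adgre1, Cd68, Tyrobp, Fcer1g and Laptm5) the sum was 133 ± 14.2 CPM in saline and 67.2 ± 21.1 CPM after dex (SD, n = 3), which was 50.6% of saline, or 59.5% without dex replicate 1. The groups did not overlap in either sum. The exact two-sided permutation p was 0.1 for both sums, the smallest that 3 against 3 libraries can give.

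Promoters are shown for the genes that departed most from the common fall and for others that followed it. Of the 34 genes, 26 had an entry in the RefSeq promoter table (build GRCm38.p6), and Tyrobp, Spi1, Cd14, Csf1r, Tlr4, Tlr7, C1qa and Adgre1 had none. Each line gives the 120 bases before a start site, 5′ to 3′ on the strand of the gene. Capitals mark the hexamer GGAAGT, the core of the site bound by PU.1, and the hexamer AGAACA, an arm of the response element bound by the glucocorticoid receptor, read on either strand. Tlr1 (chr5:64933559-64933678, minus strand), Ms4a7 (chr19:11336147-11336266, minus strand), Fcgr1 (chr3:96293970-96294089, minus strand) and Pf4 (chr5:90772315-90772434, plus strand) were called lower, and Cd163 (chr6:124304531-124304650, plus strand) and F13a1 (chr13:37050245-37050364, minus strand) were not.

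Tlr1: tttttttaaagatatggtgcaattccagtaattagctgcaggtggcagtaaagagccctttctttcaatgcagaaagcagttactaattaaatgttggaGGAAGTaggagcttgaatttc
Ms4a7: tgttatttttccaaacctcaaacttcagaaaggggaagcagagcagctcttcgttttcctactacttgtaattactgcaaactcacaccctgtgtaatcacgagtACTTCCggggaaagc
Fcgr1: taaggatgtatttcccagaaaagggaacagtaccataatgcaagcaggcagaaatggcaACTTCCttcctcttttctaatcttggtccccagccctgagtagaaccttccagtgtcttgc
Pf4: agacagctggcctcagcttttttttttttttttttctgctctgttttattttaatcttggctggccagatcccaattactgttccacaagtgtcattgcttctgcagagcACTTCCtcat
Cd163: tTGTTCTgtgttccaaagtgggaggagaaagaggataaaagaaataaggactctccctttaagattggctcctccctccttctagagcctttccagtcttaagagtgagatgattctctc
F13a1: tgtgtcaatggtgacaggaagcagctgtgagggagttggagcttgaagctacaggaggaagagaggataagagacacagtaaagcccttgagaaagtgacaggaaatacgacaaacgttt

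In these lines GGAAGT appears for Tlr1, and as its reverse complement ACTTCC for Ms4a7, Fcgr1 and Pf4, while Cd163 holds AGAACA as its reverse complement TGTTCT and F13a1 holds neither. Other starts are listed for some of these genes, and before them Tlr1 (chr5:64932700-64932819) holds neither hexamer and Ms4a7 (chr19:11334696-11334815) holds AGAACA and not GGAAGT. Within 250 bases before the start, GGAAGT on either strand was found for 16 of the 26 genes, or 61.5%, against 22.2% of all 27025 genes in the table. The longer GAGGAAGT, which contains it, was found for C1qc, Pf4 and Tlr1, that is 11.5% against 2.79%. AGAACA was found for 10 genes, or 38.5% against 18.2%, and these included Cd163, C1qb, C1qc, Folr2 and Ms4a7. F13a1 held GGAAGT only before another start listed for it, which lies inside the gene. The lines printed are a selection. Among genes not printed, Folr2, Lcp1, Lyz2, Mrc1 and Tlr2 were called lower and held GGAAGT within 250 bases. Cd68, Trem2 and Cybb were called lower and held neither hexamer. C1qb, C1qc, Laptm5, Ms4a6c and Ptprc held GGAAGT and were not called. Aif1, Coro1a, Ctss, Fcer1g, Fcgr3 and Itgam lacked it and were not called, and Itgax held it and was not tested. A match of 6 letters is a description of the sequence and not a bound site.

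Of the regulators of the lineage, Csf1r fell, although it overlaps another annotated gene with counts and the use of strand in counting is not stated. Its product is the receptor for CSF1 and interleukin 34 on which macrophage survival depends. It was at 45.9, 57.9 and 64.6 CPM in saline and at 10.8, 28.8 and 28.4 CPM in dex libraries, so that the highest dex library stayed below the lowest saline library. The log2 fold change was -1.31 (SE 0.26, edgeR adjusted p = 0.00634). Spi1, the gene of PU.1, was at 5.35, 3.48 and 5.58 CPM in saline and 1.99, 4.17 and 1.55 CPM after dex, where replicate 2 lay within the saline range. Its log2 fold change of -0.90 was not called (SE 0.35, edgeR adjusted p = 0.158) but was called without dex replicate 2 (-1.46, edgeR adjusted p = 0.0199). The genes of both CSF1R ligands were tested as well and neither was called. Csf1 was at 33.3 to 41.5 CPM in saline and 38.9 to 45.2 CPM after dex, and Il34 at 2.33 to 3.16 and 2.14 to 3.63 CPM.

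The macrophage surface markers moved in different amounts. Adgre1 (chromosome 17, 57358691 to 57483527, GRCm38), an adhesion receptor used as a pan-macrophage marker of the mouse, was at 13.1, 15.7 and 15.8 CPM in saline and 1.57, 6.03 and 5.41 CPM after dex. It fell by 1.77 on the log2 scale (SE 0.32, edgeR adjusted p = 0.00346). Cd68, a lysosomal glycoprotein of phagocytes, fell less, from 17.5 to 18.8 CPM in saline to 8.7, 12.6 and 11.8 CPM, with a log2 fold change of -0.71 (SE 0.15, edgeR adjusted p = 0.01). The dex libraries lay below all saline libraries for both genes.

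Mrc1, the mannose receptor gene, was at 59.6, 78.5 and 79.4 CPM in saline and 16.1, 41.4 and 45.6 CPM after dex (log2 fold change -1.08, SE 0.26, edgeR adjusted p = 0.0207). Its groups did not overlap. The call was lost without saline replicate 2 or 3 (edgeR adjusted p = 0.0758 and 0.1) and with DESeq2 (adjusted p = 0.138). Folr2, the folate receptor of tissue macrophages, held 11 to 14 counts in the saline and 4, 0 and 2 counts in the dex libraries, and its log2 fold change of -2.64 (SE 0.75, edgeR adjusted p = 0.0463) was lost under every single-library omission but that of dex replicate 1, with edgeR adjusted p-values up to 0.154. Folr2 also overlaps a pair of other annotated genes with counts, and since it is not stated whether counting used strand, its value is uncertain.

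Cd163 (chromosome 6, 124304656 to 124330527) behaved unlike the other surface markers. This scavenger receptor for haemoglobin bound to haptoglobin was at 1.45, 1.87 and 1.7 CPM in saline and 1.81, 2.37 and 5.83 CPM after dex. Replicates 2 and 3 lay above all saline libraries, and replicate 1 lay within their range. The log2 fold change was 0.99 and was not called (SE 0.42, edgeR adjusted p = 0.194). It was 0.32 to 1.28 when single libraries were left out and stayed uncalled throughout.

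Among Fc receptors and their ITAM signalling partners, 3 of 5 fell. Fcgr1, the high-affinity IgG receptor, went from 2.64 to 3.55 CPM in saline to 0.483, 1.01 and 1.07 CPM after dex (log2 fold change -1.84, SE 0.38, edgeR adjusted p = 0.00848), a call that was lost without saline replicate 2 (edgeR adjusted p = 0.0532). Trem2, a lipid-sensing receptor, was at 3.46, 4.51 and 6.13 CPM in saline and 0.846, 1.69 and 1.43 CPM after dex (-1.82, SE 0.34, edgeR adjusted p = 0.00424). Every dex library of these receptors lay below every saline library. Tyrobp, the adaptor through which TREM2 signals, had a smaller fold change of -1.02 (SE 0.25, edgeR adjusted p = 0.0254), from 6.43 to 8.38 CPM in saline to 2.36, 4.73 and 3.63 CPM. The call of Tyrobp was lost without dex replicate 1 (edgeR adjusted p = 0.0684) and without saline replicate 1, 2 or 3 (0.075, 0.126 and 0.0629).

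The remaining pair was not called. Fcgr3, a low-affinity IgG receptor, was at 5.79, 7.03 and 8.07 CPM in saline and 3.2, 9.35 and 4.76 CPM after dex, so that the dex libraries lay on both sides of the saline range (log2 fold change -0.27, SE 0.32, edgeR adjusted p = 0.696). Without dex replicate 1 its log2 fold change was 0.025. Fcer1g, the gamma chain shared by several Fc receptors of macrophages and mast cells, was at 6.92, 7.42 and 5.82 CPM in saline and 4.71, 6.87 and 4.58 CPM after dex (-0.32, SE 0.22, edgeR adjusted p = 0.457). A p above the threshold does not show that either gene was unchanged.

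The genes of complement C1q, the antibody-binding first component of the classical pathway, lie side by side on chromosome 4 (C1qb 136880129 to 136886187, C1qc 136889804 to 136893065, C1qa 136895917 to 136898803). None of the 3 was called. C1qa was at 16.6, 19.5 and 23.8 CPM in saline and 5.8 to 15 CPM after dex (log2 fold change -0.84, SE 0.26, edgeR adjusted p = 0.066). C1qb changed by -0.87 (SE 0.32, edgeR adjusted p = 0.134) and C1qc by -0.70 (SE 0.28, edgeR adjusted p = 0.162), and in all 3 genes dex replicate 1 was the lowest library. C1qa and C1qb did not overlap between groups. C1qa was called without dex replicate 2 or 3 (edgeR adjusted p = 0.0289 and 0.0288), and C1qc without dex replicate 2 (edgeR adjusted p = 0.017).

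Of the Toll-like receptors and their co-receptor, 3 of 5 fell. Tlr1 (chromosome 5, 64924679 to 64933563), which pairs with TLR2 to bind bacterial lipopeptides, had the largest change of the 33 genes tested. It held 46, 33 and 49 counts in saline and 8, 1 and 4 counts in dex libraries, or 2.89, 2.13 and 2.97 CPM and 0.483, 0.0563 and 0.238 CPM. The log2 fold change was -3.35 (SE 0.54, edgeR adjusted p = 0.0015), with a range of -4.13 to -2.88 over single-library omissions. Its close paralog Tlr6, which also pairs with TLR2, was at 2.08 to 3.61 CPM in saline and 3.68, 0.901 and 1.43 CPM after dex and was not called.

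Tlr2 itself was at 7.74 to 11.6 CPM in saline and 4.29, 4.11 and 7.31 CPM after dex (log2 fold change -0.88, SE 0.24, edgeR adjusted p = 0.0376). The call was lost without dex replicate 1 or 2 or saline replicate 2 or 3, with edgeR adjusted p-values of 0.106, 0.133, 0.101 and 0.188. Tlr4, the endotoxin receptor, changed by -1.32 (SE 0.32, edgeR adjusted p = 0.0224), from 2.71 to 3.82 CPM to 1.13 to 1.75 CPM, and lost its call without dex replicate 2 or saline replicate 1 or 3 (edgeR adjusted p = 0.07, 0.093 and 0.111). Dex libraries lay below saline libraries for both. Tlr7, a sensor of single-stranded RNA, was not called (-0.86, SE 0.36, edgeR adjusted p = 0.193), although its groups did not overlap. Cd14, which passes endotoxin to TLR4, was at 5.85, 5.87 and 6.98 CPM in saline and 2.72, 5.75 and 6.07 CPM after dex and was not called (-0.36, SE 0.27, edgeR adjusted p = 0.503).

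The integrin genes were near the floor. Itgam (CD11b) held 11 to 19 counts in saline and 16, 5 and 5 after dex (log2 fold change -0.94, SE 0.57, edgeR adjusted p = 0.393), and it overlaps another annotated gene with counts. Itgax (CD11c) held 5, 16 and 5 counts in saline and 0, 2 and 0 after dex. As all dex libraries were at or under the floor of 3 counts per library, Itgax was at least 3.03-fold lower after dex. This bound rested on saline replicate 2, without which it was 1.7-fold.

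The MS4A genes encode membrane proteins of leukocytes with several spans. Ms4a7 (chromosome 19, 11321039 to 11336146) had the next largest change after Tlr1, from 28, 53 and 36 counts in saline to 4, 2 and 12 counts after dex, or 1.76, 3.42 and 2.18 CPM to 0.242, 0.113 and 0.714 CPM. Its log2 fold change was -2.77 (SE 0.56, edgeR adjusted p = 0.00768), and the call was lost without saline replicate 2 (edgeR adjusted p = 0.0542). Ms4a6c was at 3.4, 2 and 3.64 CPM in saline and 1.09 to 1.63 CPM after dex and was not called (-1.10, SE 0.35, edgeR adjusted p = 0.0754). Of its near-identical neighbours, neither Ms4a6b (-0.16) nor Ms4a6d (-0.0050) was called, and reads shared among these genes make their values uncertain.

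Of the lysosomal genes, Lyz2 fell. It was at 27.9, 24.9 and 27.8 CPM in saline and 13.7, 19 and 11.9 CPM after dex (log2 fold change -0.85, SE 0.16, edgeR adjusted p = 0.00396). Its close paralog Lyz1 held at most 0.0604 CPM in any somatic library. Laptm5, a lysosomal membrane protein of blood cells, was at 24.7, 33.1 and 31.3 CPM in saline and 15.46 to 25.23 CPM after dex. Laptm5 was not called (-0.55, SE 0.17, edgeR adjusted p = 0.0597), but it was without dex replicate 2 or saline replicate 1 (edgeR adjusted p = 0.0157 and 0.0481). Ctss, a cysteine protease of antigen-presenting cells, changed by -0.80 and was called only when dex replicate 3 was left out among the single omissions (edgeR adjusted p = 0.0869 with all libraries and 0.0129 without it).

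Genes of leukocyte signalling, the cytoskeleton and the phagocyte oxidase also leaned lower. Lcp1, an actin-bundling protein, was at 29.7, 29.6 and 30.7 CPM in saline and 13.9, 21.7 and 13.4 CPM after dex (log2 fold change -0.88, SE 0.16, edgeR adjusted p = 0.0042). Cybb, the catalytic subunit of the oxidase, went from 5.89 to 7.54 CPM in saline to 1.87, 4.11 and 2.97 CPM (-1.16, SE 0.27, edgeR adjusted p = 0.0187). The call of Cybb was lost without saline replicate 1, 2 or 3 (edgeR adjusted p = 0.0668, 0.0909 and 0.0512). Ptprc (CD45, the pan-leukocyte phosphatase), Aif1 (a calcium-binding protein of microglia and macrophages) and Coro1a (an actin regulator of leukocytes) had log2 fold changes of -0.82, -0.86 and -0.53 and were not called. Their groups did not overlap. Coro1a, which overlaps Bola2, was nearest to the threshold (edgeR adjusted p = 0.0537), and Ptprc was called without dex replicate 2 (edgeR adjusted p = 0.025).

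The secreted factors went separate ways. Pf4, a chemokine of platelets that fetal macrophages also make, was at 4.59, 5.93 and 8.13 CPM in saline and 1.39, 2.03 and 3.09 CPM after dex (log2 fold change -1.52, SE 0.31, edgeR adjusted p = 0.00846), and lost its call without saline replicate 3 (edgeR adjusted p = 0.0682). F13a1 (chromosome 13, 36867178 to 37050244), the A subunit of coagulation factor XIII, was at 31, 30.6 and 30.9 CPM in saline and 14, 33.4 and 37.2 CPM after dex. Dex replicate 1 lay below the saline libraries and the other dex libraries above them. The log2 fold change of F13a1 was -0.13 (SE 0.25, edgeR adjusted p = 0.818), and 0.19 without dex replicate 1. Of 12 megakaryocyte and platelet markers, 4 could be tested and 0 were called, and Gp1bb and Gp6 held no counts in any somatic library.

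**Figure D2:**
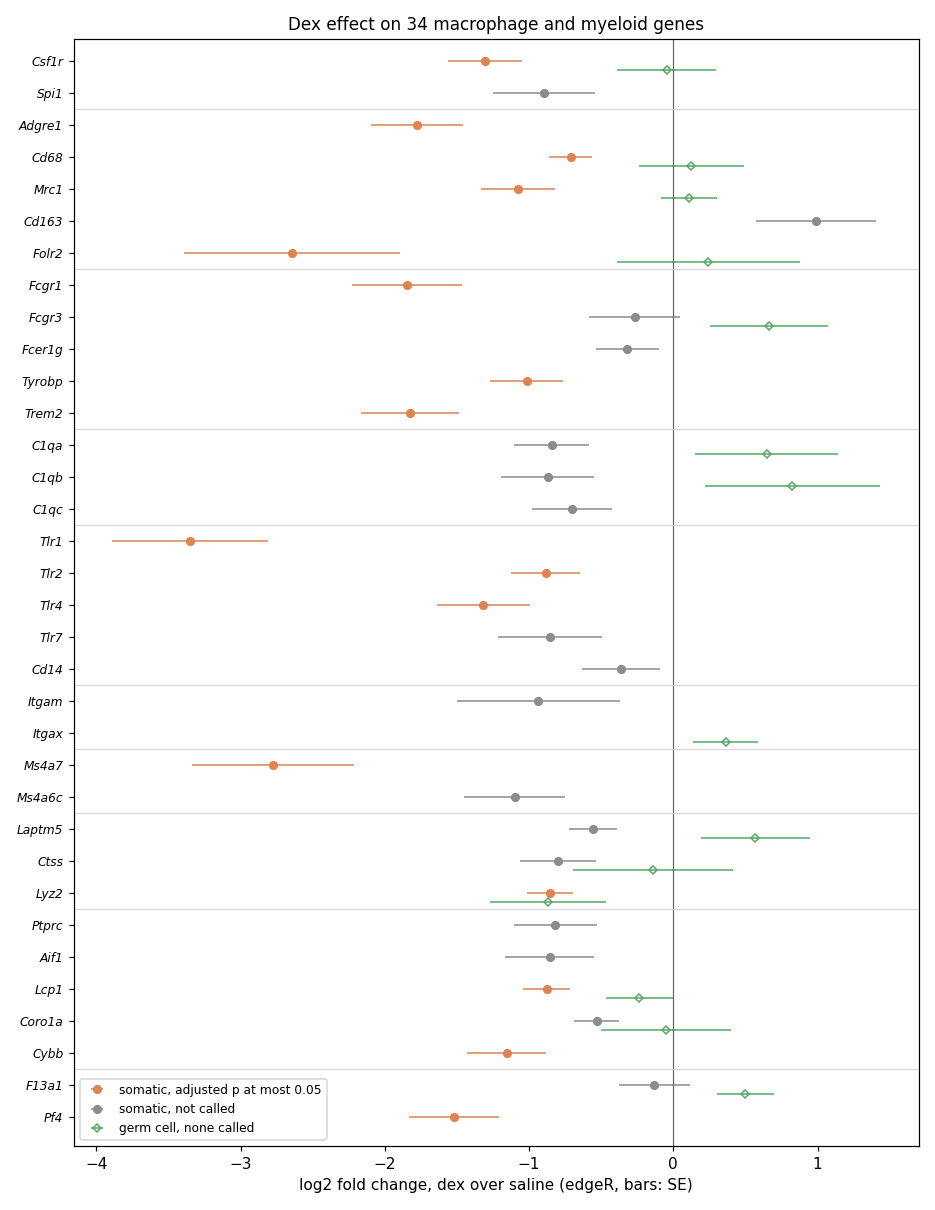
Log2 fold change of dex over saline (horizontal axis, bars of 1 SE from edgeR) for the 34 genes, in somatic cells (circles, orange where the adjusted p was at most 0.05) and in germ cells (open diamonds, for the 14 genes tested there). Somatic values run from -3.35 for Tlr1 to 0.99 for Cd163, and the 16 called genes all lie below zero.

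To ask whether the genes fell by the same amount, the somatic fit was repeated with each library scaled by its summed counts of the 6 core genes. In this fit a gene that fell as the core did has a value of zero, and all other RNA appears to rise, with a median of 1.09 over all genes. Of the 28 other members 27 were tested. Relative to the core 2 were lower, both among those that passed the filter through saline, Tlr1 (-2.25, SE 0.65, edgeR adjusted p = 0.00484) and Ms4a7 (-1.75, SE 0.62, edgeR adjusted p = 0.0106), where 0.151% of all genes were called lower. Cd163 (1.97, SE 0.48, edgeR adjusted p = 0.00101) and F13a1 (0.80, SE 0.38, edgeR adjusted p = 0.0438) were higher, 2 of 27, where 80.6% of all genes were. The other 23 were not called in either direction, and the median of the 27 was 0.10.

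Standard errors in this scaling were wide and nearly the same for many genes. C1qa, Lyz2 and F13a1 had 0.374, 0.375 and 0.377, against 0.259, 0.157 and 0.246 with TMM. The calls thus rested largely on a spread common to the genes fitted and less on that of each gene. A gene not called here is not shown to have fallen as the core did. Only Cd163 kept its call under every single-library omission. Tlr1 lost it without saline replicate 3 (edgeR adjusted p = 0.078). Ms4a7 lost it when dex replicate 2 or either of saline replicates 2 and 3 was omitted (edgeR adjusted p = 0.0658, 0.0987 and 0.098). F13a1 lost it without dex replicate 3 or any saline library, with edgeR adjusted p-values of 0.203 and of 0.0877 to 0.173. Without dex replicate 1 the calls were 4 lower and 4 higher, as Trem2 and Folr2 joined the first and Fcgr3 and Cd14 the second. With the 3 C1q genes in place of the core, 0 of the members were called in either direction.

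Counts per 100 core counts show the same genes by library. Tlr1 was at 2.49, 1.52 and 2.1 in saline and 1.11, 0.0668 and 0.322 after dex, and Ms4a7 at 1.51, 2.43 and 1.54 in saline and 0.554, 0.134 and 0.966 after dex. Trem2 was at 2.97 to 4.33 in saline and 1.93 to 2.01 after dex, Fcgr1 at 2.19 to 2.53 and 1.11 to 1.45. For these genes and Itgax, 5 of the 28, every dex library lay below every saline library, as it did for 0.248% of all genes tested. Tlr1, Ms4a7 and Fcgr1 did not reach the filter level in every dex library, which favours a fall among them. Itgax was not tested, so that the share does not cover it. Of the 5, Trem2 alone reached the filter level in every somatic library. In the other direction, Cd163 was at 1.2 to 1.33 in saline and 4.16, 2.81 and 7.89 after dex, and F13a1 at 21.8 to 26.6 and 32 to 50.3. With Fcgr3, Cd14 and Coro1a, 5 of the 28 lay wholly above saline, against 81.2% of all genes. Within the core itself the 6 genes differed too. Adgre1 was at 11.2 to 11.3 of every 100 core counts in saline and 3.6, 7.15 and 7.33 after dex, whereas Laptm5 was at 21.2 to 23.6 and 27.1 to 35.5. Csf1r, the largest part of the core in saline, also lay wholly lower after dex, at 39.4 to 45.6 and 24.8 to 38.5. Fcer1g lay wholly higher, at 4.12 to 5.95 and 6.2 to 10.8, and Cd68 and Tyrobp overlapped. The groups overlapped for the remaining 18 of the 28, C1qa, C1qb, C1qc, Mrc1, Tlr2, Tlr4, Lyz2, Ctss, Lcp1 and Cybb among them. For Mrc1 the values were 51.2 to 56.1 in saline and 36.8, 49.1 and 61.8 after dex.

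**Figure D3:**
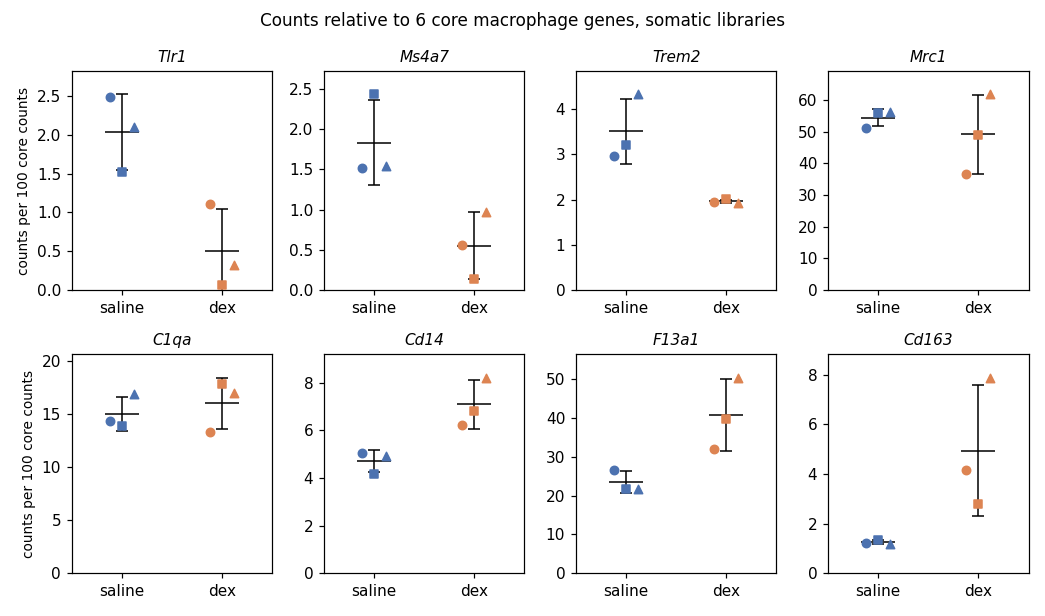
Counts of 8 genes per 100 counts of the 6 core genes (vertical axes, each from 0) in saline (blue) and dex (orange) somatic libraries, with a symbol per replicate number and the mean ± SD (n = 3) in black. Tlr1, Ms4a7 and Trem2 lie lower after dex, Cd14, F13a1 and Cd163 higher, and Mrc1 and C1qa overlap.

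Some markers of other myeloid cells rose in the same dex libraries, where 4.81% of all genes were called higher and 3.36% lower. Of 10 neutrophil and granulocyte markers tested 4 rose and 0 fell, and their summed level was 21.4 to 42 CPM in saline and 50.2 to 107 CPM after dex. Of 7 mast cell and basophil markers tested 4 rose and 0 fell, with sums of 317 to 345 CPM and 404 to 661 CPM. Cpa3, a mast cell protease, went from 22.2 to 31.3 CPM to 94.3, 171 and 60.9 CPM. Gata2, which makes up most of the saline sum, was at 245 to 255 CPM in saline and 207 to 240 CPM after dex and was not called. Of 5 monocyte markers tested 1 rose, Chil3, with sums of 9.47 to 13.9 and 16.4 to 21.4 CPM. Plac8 made up the largest part of these sums, with means of 6.88 CPM in saline and 9.31 CPM after dex, and was not called. Ly6c2 was near the floor, with means of 0.21 and 0.193 CPM, and was not tested. Ccr2, a monocyte chemokine receptor, was at 1.7 to 2.06 CPM in saline and 0, 1.8 and 0.773 CPM after dex and was not called. The groups did not overlap in these sums. Fcer1g is also a gene of mast cells and basophils, and Lyz2, Cd14, Itgam, Fcgr3, Ptprc, Laptm5, Lcp1 and Coro1a are shared with neutrophils, monocytes or other leukocytes. The part of those cells in the values of these genes was not tested.

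Markers of other cell types were read in the same way, against the same 4.81% of all genes called higher and 3.36% lower. The endothelial sum was 425 to 509 CPM in saline and 398 to 438 CPM after dex (3 of 12 genes lower and 1 higher), the pregranulosa sum 1210 to 1320 and 965 to 1370 CPM (1 of 12 lower) and the stromal sum 21500 to 24000 and 20400 to 26400 CPM (2 of 11 higher). Perivascular genes summed to 922 to 947 and 927 to 1140 CPM (3 of 10 higher), and lymphocyte genes, of which Ms4a1 held no counts, to 10.6 to 13.5 and 8.16 to 10.9 CPM (0 of 4 called). Erythroid sums varied most within dex, from 3340 to 16600 CPM, against 7420 to 12500 CPM in saline (1 of 11 higher). Germ cell markers summed to 10.1 to 16.4 CPM in saline and 18.7 to 34.4 CPM after dex (1 of 7 higher). Dex replicate 1, with the lowest macrophage counts, lay between the other dex libraries for the neutrophil, mast cell, megakaryocyte, erythroid, endothelial and stromal sums. It was below both for the monocyte, lymphocyte, pregranulosa and germ cell sums and above both for the perivascular sum.

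**Figure D4:**
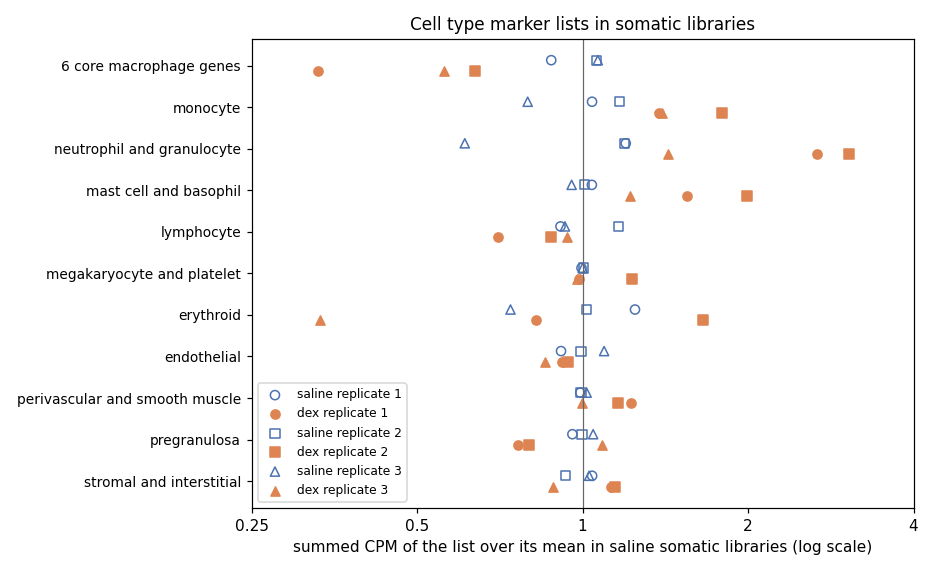
Summed CPM of the 6 core macrophage genes and of 10 lists of cell type markers in each somatic library, divided by the mean of the 3 saline libraries (log axis), with filled orange symbols for dex and open blue symbols for saline. The core genes lie left of 1 in all dex libraries, and the monocyte, neutrophil and mast cell lists lie to the right of all saline libraries.

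Germ cell libraries served to see whether the genes changed in the other fraction. Of the 34 genes 14 were high enough to be tested and 0 were called by edgeR, where 0.208% of all 16857 genes were called. DESeq2 also called 0 of them. At an unadjusted p under 0.05 there was 1 of the 14, F13a1, and 1963 of all 16857 genes. F13a1 was at 7.04, 6.18 and 10.2 CPM in saline and 10.3, 11.7 and 11 CPM after dex (log2 fold change 0.50, edgeR adjusted p = 0.363). The median over the 14 was 0.18, against 0.0142 over all genes. However, Folr2, Fcgr3, C1qa, C1qb, Ctss, Lyz2 and Coro1a did not reach the low-count filter level in every germ cell library. Genes that pass through a single group can move a median, so nothing is drawn from it. Of the other 7 genes, which reached the level in all 6 libraries, 0 were called. The summed level was 64.3 to 73.1 CPM in saline and 66.4 to 82.6 CPM after dex (exact two-sided permutation p = 0.3, smallest possible 0.1), so that the groups overlapped.

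Whether the dex effect differed between the cell types was tested over all 12 libraries. The effect in germ cells minus that in somatic cells was called higher for 1 of the 34 genes, Itgax (0.49% of all 19390 genes), and lower for 0 (1.13% of all genes). Of the 34 genes 6 reached the level of the low-count filter in all 12 libraries, and 0 of these were called by edgeR. The other 28, Itgax among them, entered the fit through the groups in which they are high, so that neither a median nor a count of signs is given. Itgax was at 3.44 to 5.62 CPM in the germ cell libraries and at 0 to 0.113 CPM in dex somatic cells, and the difference was 3.92 (SE 0.94, edgeR adjusted p = 0.044). The call was lost without any 1 of 10 of the 12 libraries (edgeR adjusted p of 0.0512 to 0.165) and kept without somatic dex replicate 2 or somatic saline replicate 1. A difference for Itgax is therefore not established, since it could not be tested in somatic cells on their own. Nor is a fall called in somatic cells shown to differ from the germ cell effect for the other members. At an unadjusted p under 0.05 there were 13 of 34, Itgax among them, and 2991 of all 19390 genes. This count has the same limit, as most of the 34 genes entered through the groups in which they are high.

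The low germ cell level is part of that comparison. In saline, 32 of the 34 genes were lower in germ cells than in somatic cells, where 42.9% of all genes were, 1 was higher, where 43.1% were, and Folr2 was not called. Of the 34 genes 7 reached the filter level in every saline library of both cell types, and all 7 were lower in germ cells. Itgam, at 44.8% of its somatic level, lost its call when any 1 saline library other than somatic replicate 1 was omitted. The 28 genes other than Mrc1, Itgam, Itgax, Folr2, Lcp1 and F13a1 stood in germ cells at 0.925% (Pf4) to 13% (Fcgr1) of their somatic level. Pf4 was at or under the floor of 3 counts in all saline germ cell libraries and so at least 32.1-fold lower, as were Tlr4 (at least 17.4-fold), Tlr1 (at least 13.7-fold) and Cd163 (at least 8.63-fold). What cells these germ cell counts came from was not tested.

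Several genes stood at a larger share of their somatic level in the GFP+ sort than the rest, and Itgax alone was called higher there. Mrc1 held 402 to 652 counts in every germ cell library, 43.4% of its somatic level in saline, and after dex, with the somatic level down, 98.4%. Itgax (chromosome 7, 128129547 to 128150657) held 59 to 84 counts in germ cells of either treatment and 0 to 16 in somatic cells, a log2 difference of 2.84 in saline (edgeR adjusted p = 1.57e-05). Lcp1 stood at 23.8% and F13a1 at 25.3% of the somatic level. Folr2 varied between germ cell libraries from 5 to 40 counts, and its log2 difference of 0.52 (edgeR adjusted p = 0.415) was -0.66 without germ saline replicate 2.

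**Figure D5:**
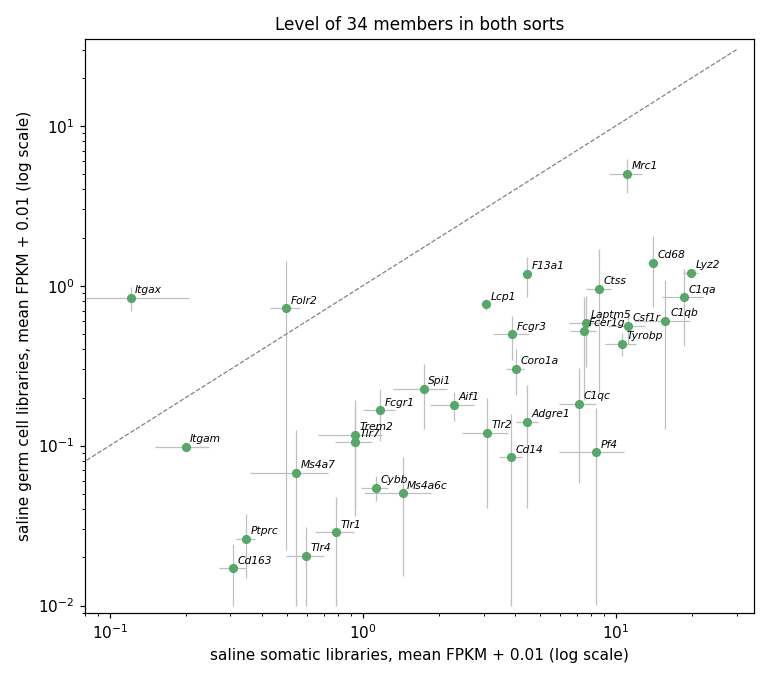
Mean level of each gene in saline somatic (horizontal axis) and saline germ cell libraries (vertical axis), as FPKM + 0.01 on log axes, with bars of 1 SD (n = 3) and a dashed line of equal levels. Only Itgax and Folr2 lie above the line, and Mrc1 has the highest level in germ cells.

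Other myeloid genes, in 7 lists of 153 genes, were read in the same somatic test. Of 129 tested 24 fell and 9 rose, with a median log2 fold change of -0.26, where 3.36% of all genes were called lower and 4.81% higher. The 9 that rose were not far from the share over all genes. The surface and lysosomal list resembled the 34 genes, with 11 of 32 lower, 2 higher and a median of -0.91. Stab1, a scavenger receptor, fell by 1.64 on the log2 scale from 118, 131 and 162 CPM to 23, 56 and 53.2 CPM (edgeR adjusted p = 0.000567), and the purinergic receptor genes P2ry12 and P2ry13 fell by 1.70 and 1.74. Mertk and Axl, engulfment receptors that other somatic cells also express, rose by 1.17 and 0.23. Mertk was at 39.7 to 43.3 CPM in saline and 82.5 to 104 CPM after dex (edgeR adjusted p = 2.57e-06).

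Receptor and complement lists split by gene, and each count stands against 3.36% of all genes called lower and 4.81% higher. In the Toll-like receptor pathway 2 of 19 fell, Cd180 (-2.60) and Ly86 (-1.73), and 0 rose. Of other Fc, ITAM and ITIM genes 4 of 14 fell and 0 rose, including the inhibitory receptors Lilrb4a (-2.21) and Fcgr2b (-1.26). Of other complement genes 5 of 17 rose, among them C7 (2.09), C3 (1.39) and C1s1 (1.18), which stromal cells express, while the receptor gene C3ar1 fell (-1.29). The oxidase and signalling list had 3 of 25 lower and 0 higher, Pik3ap1 (-1.12), Nckap1l (-0.84) and Dock2 (-0.79). Among the transcription factors reported here Irf8 fell (-0.82) and Cebpb (1.07) and Maf (0.47) rose, and of 8 colony-stimulating factor genes tested Csf3r alone fell (-1.72).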

How the data were processed

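RNA-seq counts of genes were made by the authors with HISAT2 2.0.5 (build mm10) and featureCounts 1.5.0-p3, and were deposited as raw whole numbers for 12 libraries. FPKM values of the same genes were deposited by the authors as well. Strand and multimapping settings are not stated in the sources used here. Csf1r, Folr2, Fcgr3, Itgam, Ms4a6c, Ctss, Ptprc, Lcp1, Coro1a and F13a1 overlap other annotated genes with counts, which makes their values less certain. The authors' own comparison tables, which hold fold changes and p-values, were not used.

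Groups were taken from the sample titles. The 34 genes and all lists were chosen with earlier results of these data known. Named genes are the 34 members, and from each other myeloid list the called genes with the largest changes, up to 3 lower and 3 higher among those with a mean of at least 1 CPM. A result of the transcription factor list is not reported here. In marker lists the named examples were chosen after their values were seen.

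Genes passing filterByExpr were tested over the whole table with edgeR 4.0.16 (quasi-likelihood, TMM, Benjamini-Hochberg adjustment, threshold 0.05) in R 4.3.3, each cell type in a fit of its own 6 libraries, the difference of effects over all 12, and germ against somatic cells over the 6 saline libraries. The core fit replaced TMM by the summed counts of the 6 core genes. Single sums were compared by an exact two-sided permutation test. Scripts were tested on simulated data. Alternatives were DESeq2 1.42.0, no filter, RLE scaling, library totals, a fit over all 12 libraries, the replicate number as a block, another core, and single-library omissions. Counts over members that reached the filter level in every group, and the Itgax bound without single libraries, were added after seeing the data. Library totals were 14658503 to 18245507 counts. A count of 0 to 3 was read as the floor, which covers counting error only. Positions are from GENCODE M21 on GRCm38 and promoters from RefSeq GRCm38.p6.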

Additional observations from a re-analysis of the deposited data

Results flagged for a closer look

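The dex effect on Itgax, which encodes the integrin CD11c of dendritic cells and macrophages, was called different between the cell types, but this is not established. Itgax passed the low-count filter only through the germ cells and could not be tested in somatic cells alone. The germ cell effect minus the somatic effect was 3.92 on the log2 scale (SE 0.94, edgeR adjusted p = 0.044). Itgax held 59 to 84 counts in the germ cell libraries, 5, 16 and 5 in somatic saline and 0, 2 and 0 in somatic dex libraries. Without single libraries the difference was 3.12 to 6.56, and the call was lost for 10 of the 12, and with the replicate block.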

How the results depend on the processing

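Of 477 values of named genes under alternatives, 391 kept their direction and side of the threshold, 56 lost a call, 27 gained a call and 3 changed sign. Of the 16 genes called lower in somatic cells, 6 were called under every alternative run, Csf1r, Adgre1, Trem2, Tlr1, Lyz2 and Lcp1, and Cd68 was lost only in the fit over all 12 libraries. The number of members called lower was 16 with DESeq2 (14 shared; Mrc1 was lost and Folr2 received no adjusted p), 26 without the low-count filter, 11 in the fit over all 12 libraries and 9 to 18 over single omissions. Fcgr3 ranged from -0.83 to 0.025 over single omissions and F13a1 from -0.37 to 0.19, both above zero without somatic dex replicate 1. Folr2 in germ against somatic cells ranged from -0.66, without germ saline replicate 2, to 0.94.

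Somatic genes called in all, 1354 as reported, were 803 in the fit over all 12 libraries and 754 to 1881 over single omissions. DESeq2 moved the median of all genes in germ against somatic cells from 0.0047 to 0.121. Germ cell genes called in all, 35 as reported, were 158 with DESeq2, 420 without the filter, 64 in the fit over all 12 libraries and 17 to 81 over single omissions, and members called stayed at 0. For the difference of effects, 314 genes were called as reported, 622 with DESeq2, 727 without the filter and 143 to 384 over single omissions, and members called higher were 1 as reported, 8 without the filter and 0 to 1 over single omissions. Relative to the core, all genes called numbered 13373 as reported, 222 with the C1q genes as reference and 575 to 14486 over single omissions. Members called were then 0 lower and 0 higher with the C1q reference, 1 higher without the filter, 0 to 4 lower and 1 to 4 higher over single omissions. Scaling by library totals moved the share of higher calls from 42.9% to 53.8% in germ cells and from 30.3% to 46.1% for the difference.

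Replicate numbers are shared by the groups but did not pair the somatic libraries, whose same-number correlations were 0.0826, -0.00293 and 0.0438. Each saline germ cell library correlated best with the saline somatic library of its own number, as did each dex pair, which is a hint from the data and not from the design. The main fits of the difference of effects and of germ against somatic cells took all libraries as independent. For the difference, the replicate block used a common effect of each number for both treatments and did not pair the sorts within a treatment. With the replicate block 21 members were called lower in somatic cells, Folr2 was lost, C1qa, C1qb, C1qc, Laptm5, Ctss and Ptprc were gained (edgeR adjusted p = 0.00598, 0.0109, 0.0243, 0.00524, 0.0148 and 0.0425), and 0 were called for the difference of effects. Genes with fewer than about 20 counts per library (Folr2, Itgam, Itgax) are limited by depth, and the cause of these changes was not tested.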
